A study of Mus musculus with 8 samples.

Results

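Complement C1q and Fc gamma receptor genes were followed in spleens of mice carrying the TTPΔARE allele and of wild-type (WT) mice. The genes were taken by symbol, as every row of the expression table whose gene name was C1qa, C1qb, C1qc, C3, Cfp, Fcgr1, Fcgr2b, Fcgr3, Fcgr4 or Fcer1g. These are 10 of 17738 gene symbols and 11 of 23517 RefSeq transcript rows, since Fcgr2b has 2 rows. All 11 rows had a mean of at least 0.5 FPKM and were among the 16608 rows tested. Whole spleens came from 4 untreated male TTPΔARE mice and 4 untreated male WT mice, all of the C57BL/6 strain and 8 to 12 weeks old, and each spleen was sequenced as 1 library of total RNA. The TTPΔARE allele lacks the AU-rich element in the 3′ untranslated region of Zfp36, which encodes the mRNA decay factor tristetraprolin (TTP), and is a germline change, so no cell type was targeted. Whether the mice were littermates is not given in the labels. Expression is in FPKM, sequenced fragments scaled for transcript length and library depth, so that levels of different genes can be set side by side.

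C1q is the recognition unit of the classical complement pathway. Its A, B and C chains, encoded by C1qa, C1qb and C1qc, assemble into a bouquet-shaped molecule that binds immune complexes and dying cells, and tissue macrophages and dendritic cells are its main source. C3 is the central component on which the complement pathways converge, and properdin, encoded by Cfp, stabilises the alternative pathway convertase. Fc gamma receptors bind the constant part of IgG. Fcgr1, Fcgr3 and Fcgr4 encode activating receptors that signal through the common gamma chain, encoded by Fcer1g, whereas Fcgr2b encodes the inhibitory receptor, found on B cells and myeloid cells. In the spleen both systems take part in clearing opsonised cells and immune complexes in the red pulp and marginal zone.

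Libraries held an estimated 28.4 to 32.5 M fragments each, as read from the spacing of low FPKM values. At that depth the members rested on between 211 fragments, for Fcgr1, and 19945 fragments, for C3, in a library. Zfp36 stood at 57.5, 46.1, 55.1 and 52.9 FPKM in TTPΔARE spleens and at 37.9, 42.1, 44.9 and 36.4 FPKM in WT spleens. In Zfp36, the deleted stretch lies in the untranslated region, so its level is no check of the deletion itself; the groups did not overlap (log2 0.39, SE 0.0848, limma adjusted p = 0.0323). Summed over 13 erythroid genes, FPKM were 9793.7 to 15506.9 in TTPΔARE and 4141.8 to 7714.0 in WT spleens. All 13 had positive log2 changes, and 5 passed by limma at an adjusted p under 0.05. The sum over 12 B cell genes was 946.8 to 1020.7 in TTPΔARE and 1081.3 to 1152.3 in WT spleens. Of these 12 only 1 had a positive log2 change, and 2, Fcer2a and Cd22, passed as lower. No marker of either list was at 0 in all spleens. Liver genes were near 0 except in WT replicate 2, where the 6 hepatocyte genes summed to 62.9 FPKM, against at most 3.56 FPKM in any other spleen. In whole spleen, fewer cells of a type cannot be told apart from less RNA per cell.

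None of the 11 member transcripts passed the test between genotypes. By limma on log2(FPKM + 0.5), with p-values adjusted over all 16608 rows, 0 of 11 were called, against 2.01% of all rows called higher and 1.99% called lower in TTPΔARE spleen. At an unadjusted p under 0.05 there was 1 of 11, Fcgr3, against 21.1% of all rows. In 0 of 11 did the groups stand apart without overlap, against 12.5% of all rows. The log2 change was positive in 8 of the 11 rows and negative in 3, against 51.0% positive among all rows. The median log2 change over the 11 rows was 0.09, against 0.003 over all rows. The smallest adjusted p was 0.152. The spleens of each genotype differed among themselves, with coefficients of variation up to 20.1% in TTPΔARE and 25.1% in WT spleens, both for Fcgr4.

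**Figure D1:**
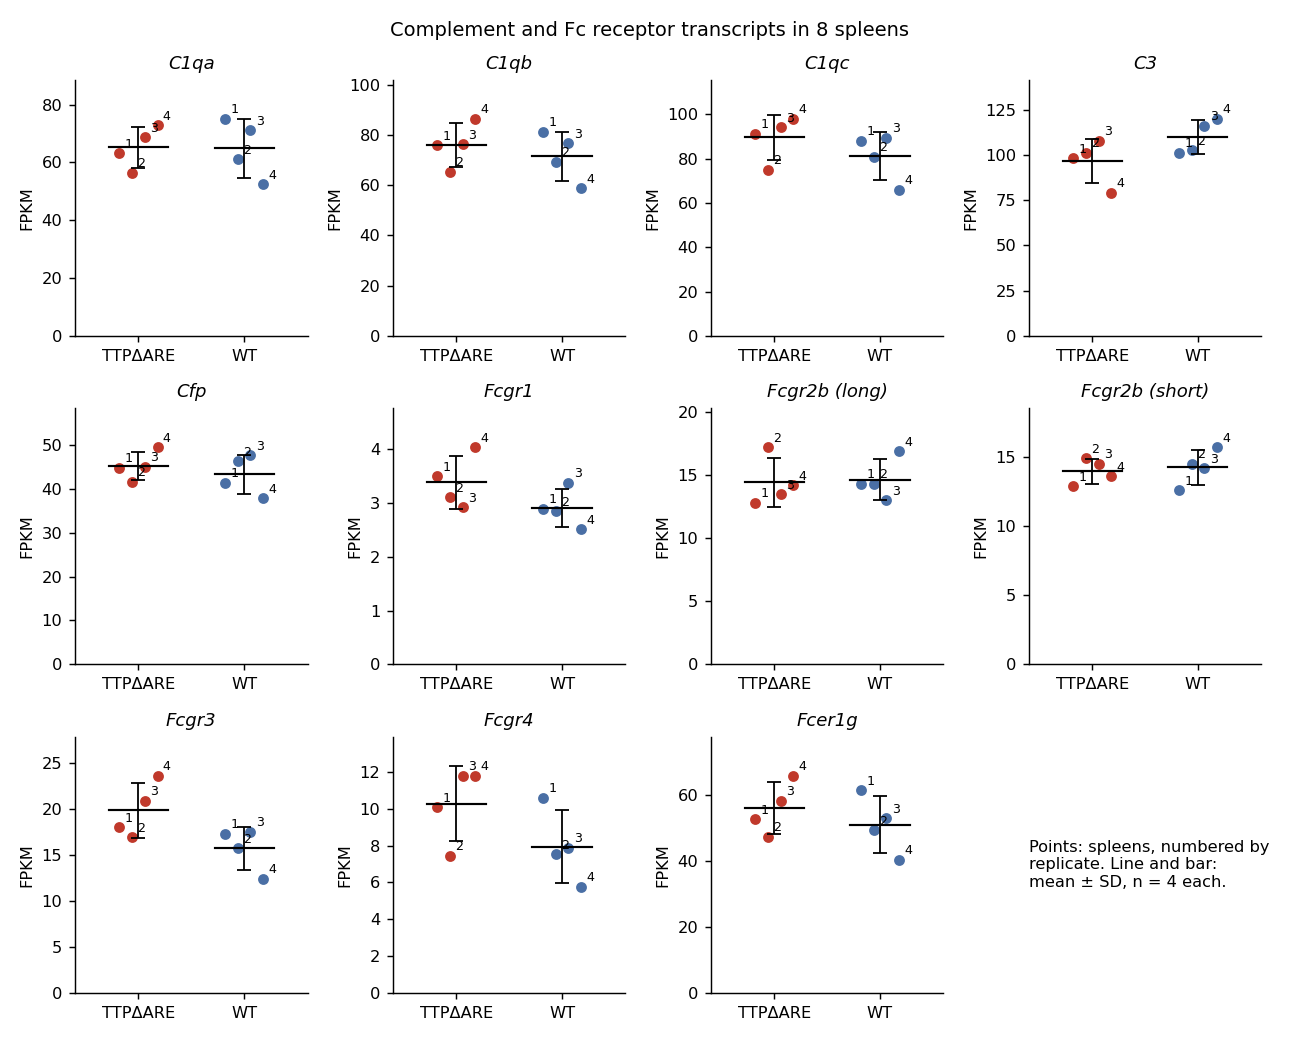
FPKM of each member transcript in the 4 TTPΔARE and 4 WT spleens, with the mean and SD of each group; numbers mark replicates, and each vertical axis starts at 0. The groups overlap in every panel, and WT replicate 4 is the lowest spleen for 8 of the 11 transcripts.

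The C1q chains were among the more abundant members and differed little between genotypes. C1qa had 63.3, 56.4, 68.7 and 72.8 FPKM in TTPΔARE spleens, against 75.1, 61.1, 71.2 and 52.4 FPKM in WT spleens. The WT spleens held both the highest and the lowest value, so the TTPΔARE range lay inside the WT range. C1qb had 75.8, 65.4, 76.3 and 86.4 FPKM in TTPΔARE spleens, against 81.3, 69.3, 76.7 and 58.8 FPKM in WT spleens. C1qc had 91.3, 75.0, 94.2 and 98.0 FPKM in TTPΔARE spleens, against 88.1, 80.9, 89.5 and 66.1 FPKM in WT spleens. For C1qc, 3 TTPΔARE spleens were above every WT spleen and TTPΔARE replicate 2 was not. The log2 changes were 0.02 for C1qa, 0.09 for C1qb and 0.15 for C1qc, with limma adjusted p-values of 0.961, 0.686 and 0.484. The 95% interval of the fold change ran from 0.85 to 1.2 for C1qa. It ran from 0.905 to 1.25 for C1qb and from 0.939 to 1.3 for C1qc. Each interval included 1, and changes of a size within it are not excluded.

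The chains moved together from spleen to spleen. All 3 were lowest in WT replicate 4, at 0.30, 0.32 and 0.36 log2 units below their mean over the 8 spleens for C1qa, C1qb and C1qc, and next lowest in TTPΔARE replicate 2. Likeness to each chain was measured as the root mean square difference between centred log2(FPKM + 0.5) profiles over the 8 spleens, among 11171 other genes with a mean of at least 1 FPKM. C1qb was the gene most like C1qa, at 0.0528, followed by Mcee, Dnajc15, Cox7a2 and Gpx4, while C1qc ranked 26. The genes most like C1qb were Unc119, C1qa, C1qc, Rgs10 and Fcer1g, between 0.051 and 0.0597. Those most like C1qc were C1qb, Unc119, P2ry2, Tbkbp1 and Hes1, between 0.0547 and 0.0699, while C1qa ranked 22. This likeness is a description of 8 spleens, and it carries no test.

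Gene positions here span all RefSeq transcript models of a gene, so a promoter window, which belongs to 1 start site, can lie within them. The chain genes are neighbours on mouse chromosome 4 (GRCm38), all on the minus strand. C1qb lies at 136880126 to 136886200, C1qc at 136889801 to 136892936 and C1qa at 136895916 to 136898844. Since these neighbours varied together, the 250 bases before the RefSeq start site (GRCm38.p6) are shown for the chains with an entry, C1qb at chr4:136886201-136886450 and C1qc at chr4:136892915-136893164, both on the minus strand and read 5′ to 3′, with capitals marking GAGGAA or its reverse complement TTCCTC, the core bound by the myeloid transcription factor PU.1.
C1qb: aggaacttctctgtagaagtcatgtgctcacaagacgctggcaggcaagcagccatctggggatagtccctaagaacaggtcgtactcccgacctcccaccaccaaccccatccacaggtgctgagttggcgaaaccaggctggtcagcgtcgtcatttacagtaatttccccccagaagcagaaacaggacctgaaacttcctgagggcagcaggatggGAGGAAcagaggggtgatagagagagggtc
C1qc: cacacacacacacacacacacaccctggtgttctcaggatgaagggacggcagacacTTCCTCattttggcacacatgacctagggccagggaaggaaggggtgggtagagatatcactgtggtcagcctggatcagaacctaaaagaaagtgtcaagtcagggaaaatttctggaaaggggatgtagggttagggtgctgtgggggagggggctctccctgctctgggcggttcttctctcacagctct
The match began 30 bases before the start in C1qb and 193 bases before it in C1qc. Of 32851 promoter windows of this length in the table, 23.3% held such a match on either strand, so a match is a description of the letters and no evidence of binding.

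C3 and Cfp, the other complement members, did not follow one pattern. C3 had 98.3, 101.3, 107.8 and 79.1 FPKM in TTPΔARE spleens, against 101.2, 102.5, 116.2 and 119.9 FPKM in WT spleens. It was the only member lower than the WT mean in all 4 TTPΔARE spleens, but the ranges overlapped, and the log2 change of -0.19 (SE 0.0975) did not pass (limma adjusted p = 0.294). TTPΔARE replicate 4 was the lowest spleen, and without it the log2 value was -0.10. WT replicate 2, which carried the liver transcripts, had 102.5 FPKM of C3, between WT replicates 1 and 3. Cfp averaged 45.2 ± 3.21 FPKM in TTPΔARE and 43.2 ± 4.52 FPKM in WT spleens (SD, n = 4 each), with a log2 change of 0.07 (limma adjusted p = 0.694).

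C1q chains were also set against C3 and Cfp within each spleen. The ratio of C1qc to C3, computed on FPKM + 0.5, was 0.93, 0.742, 0.875 and 1.24 in TTPΔARE spleens, against 0.871, 0.79, 0.771 and 0.553 in WT spleens. In 3 TTPΔARE spleens it lay above every WT spleen, and in TTPΔARE replicate 2 it lay below 3 of them. The difference was 0.34 on the log2 scale (exact two-sided permutation p = 0.171). C1qa to C3 and C1qb to C3 differed by 0.21 and 0.28 log2 units, with exact permutation p of 0.429 and 0.314. Against Cfp the chains differed by -0.05, 0.02 and 0.08 log2 units for C1qa, C1qb and C1qc, with ranges that overlapped in each case. After Benjamini-Hochberg adjustment over the 10 ratios compared here and for the Fc receptors, every exact permutation p was at least 0.607. The smallest p that 4 against 4 spleens allow is 0.0286, so a ratio alone at that value could not pass this adjustment.

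All 4 genes of the activating Fc receptors had positive log2 changes in TTPΔARE spleen, against 51.0% of all rows. By limma 0 of 4 passed, against 2.01% of all rows called higher and 1.99% called lower. At an unadjusted p under 0.05 there was 1 of 4, against 21.1% of all rows. Fcgr3, which encodes the low-affinity receptor FcγRIII of macrophages, neutrophils and NK cells, had 18, 16.9, 20.9 and 23.6 FPKM in TTPΔARE spleens, against 17.3, 15.7, 17.5 and 12.4 FPKM in WT spleens. In 3 TTPΔARE spleens it was above every WT spleen, and TTPΔARE replicate 2 lay within the WT range. The log2 change was 0.33 (SE 0.123, 95% interval 0.06 to 0.60), with an unadjusted p of 0.0208 and an adjusted p of 0.152 by limma. Without WT replicate 4 it was 0.22 (adjusted p = 0.297), and without TTPΔARE replicate 4 it was 0.24 (adjusted p = 0.337). With the erythroid mean as a covariate the log2 change was 0.02 for Fcgr3, 0.0046 for Fcgr1 and 0.12 for Fcgr4 (limma adjusted p of 0.997, 0.998 and 0.991). Erythroid level moved with genotype, so this fit cannot tell them apart.

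Fcgr4 encodes FcγRIV, an activating receptor of mouse monocytes, macrophages and neutrophils. It had 10.1, 7.45, 11.8 and 11.8 FPKM in TTPΔARE spleens, against 10.6, 7.55, 7.88 and 5.78 FPKM in WT spleens. TTPΔARE replicates 3 and 4 were above every WT spleen, while WT replicate 1 was higher than the other 2 TTPΔARE spleens. The log2 change of 0.36 (SE 0.172) was the largest among the members and did not pass (limma adjusted p = 0.258). It was 0.23 without WT replicate 4 and 0.50 without WT replicate 1 or TTPΔARE replicate 2.

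Fcgr1 and Fcer1g showed smaller differences. Fcgr1, which encodes the high-affinity receptor FcγRI and lies apart from the others on chromosome 3 at 96282909 to 96293969, averaged 3.38 ± 0.493 FPKM in TTPΔARE and 2.91 ± 0.353 FPKM in WT spleens (SD, n = 4 each). All 4 TTPΔARE spleens exceeded the WT mean, and the log2 change was 0.19 (limma adjusted p = 0.325). Fcer1g, whose product carries the activating signal for these receptors and for other immune receptors, averaged 55.9 ± 7.89 FPKM in TTPΔARE and 50.9 ± 8.69 FPKM in WT spleens, with a log2 change of 0.14 (limma adjusted p = 0.585). Fcer1g was more abundant than any of the receptor chains that use it in every spleen of the series.

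The inhibitory gene Fcgr2b showed no difference larger than the spread between spleens. Its 2 rows are splice forms that the GENCODE annotation of the matching transcripts gives 340 and 293 codons, the longer of them being the form with the extra cytoplasmic exon that is characteristic of B cells. The long form had 12.8, 17.2, 13.5 and 14.2 FPKM in TTPΔARE spleens, against 14.3, 14.3, 13.0 and 16.9 FPKM in WT spleens. The short form had 12.9, 14.9, 14.5 and 13.6 FPKM in TTPΔARE spleens, against 12.6, 14.5, 14.2 and 15.7 FPKM in WT spleens. Both had a log2 change of -0.02, with 95% intervals of -0.24 to 0.19 and -0.18 to 0.14 and limma adjusted p-values of 0.926 and 0.9. Because 96.5% of the 50-base stretches of the short form also occur in the long one, how the authors' counting split reads between them is uncertain. Likewise 12.8% of the 50-base stretches of Fcgr3 occur in Fcgr2b, and the handling of such reads is not given in the sources used here.

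**Figure D2:**
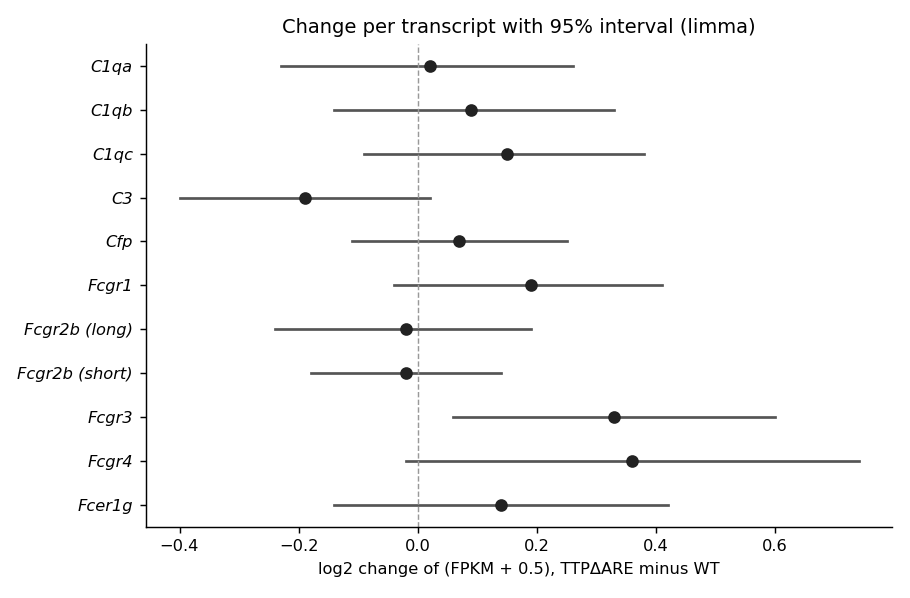
Log2 change of each member transcript, TTPΔARE minus WT, on log2(FPKM + 0.5), with dots for the limma estimate and lines for its 95% interval (n = 4 each). Only the Fcgr3 interval, 0.06 to 0.60, lies wholly on one side of 0, and its adjusted p was 0.152.

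Setting each activating gene against Fcgr2b within a spleen left the groups overlapping. The ratio of Fcgr3 to Fcgr2b (long form, FPKM + 0.5) was 1.39, 0.986, 1.53 and 1.64 in TTPΔARE spleens, against 1.2, 1.1, 1.33 and 0.74 in WT spleens. TTPΔARE replicates 1, 3 and 4 were above every WT spleen, and TTPΔARE replicate 2 was above WT replicate 4 alone. The log2 difference was 0.35 (exact two-sided permutation p = 0.2). For Fcgr4 the ratio was 0.45 to 0.878 in TTPΔARE and 0.361 to 0.748 in WT spleens, a log2 difference of 0.38 (exact permutation p = 0.286). Fcgr1 and Fcer1g gave differences of 0.21 and 0.16 log2 units, with exact permutation p of 0.371 and 0.486. A shift of the activating to inhibitory balance at the mRNA level was not detectable with 4 spleens a group.

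**Figure D3:**
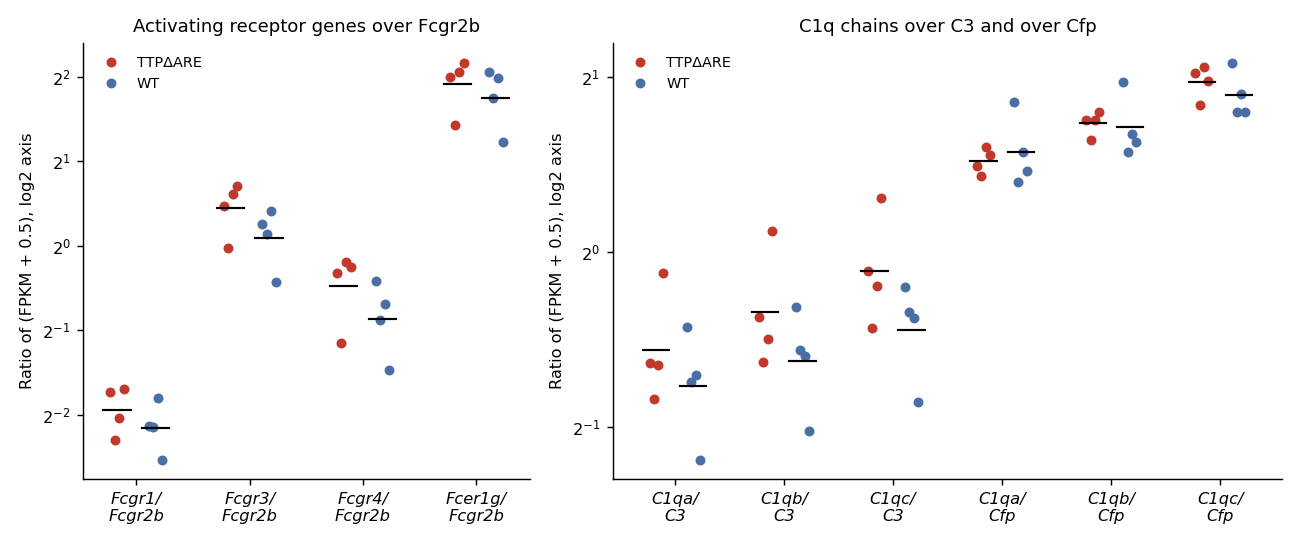
Ratios of activating Fc receptor genes to Fcgr2b (left) and of C1q chains to C3 and Cfp (right) in each spleen, on FPKM + 0.5 and a log2 axis; points are spleens and lines are geometric means of 4. The groups overlap for all 10 ratios, and TTPΔARE replicate 4 stands highest among its group for the ratios to C3.

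Fcgr2b, Fcgr4, Fcgr3 and Fcer1g lie on mouse chromosome 1 (GRCm38), Fcgr2b at 170960558 to 170976071, Fcgr4 at 171018926 to 171029761, Fcgr3 at 171051169 to 171065915 and Fcer1g at 171229572 to 171234349. The RefSeq promoter windows of the pair of activating genes with the largest changes and of the inhibitory gene are shown so that they can be read against each other, 250 bases before the start, 5′ to 3′, with capitals again marking GAGGAA or TTCCTC. They lie at chr1:171059404-171059653 (minus strand) for Fcgr3, chr1:171018676-171018925 (plus strand) for Fcgr4 and chr1:170976072-170976321 (minus strand) for Fcgr2b.
Fcgr3: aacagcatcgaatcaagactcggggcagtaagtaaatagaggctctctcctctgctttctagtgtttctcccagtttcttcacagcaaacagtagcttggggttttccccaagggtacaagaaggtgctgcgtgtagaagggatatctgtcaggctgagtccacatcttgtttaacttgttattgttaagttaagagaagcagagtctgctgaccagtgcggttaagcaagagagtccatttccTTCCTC
Fcgr4: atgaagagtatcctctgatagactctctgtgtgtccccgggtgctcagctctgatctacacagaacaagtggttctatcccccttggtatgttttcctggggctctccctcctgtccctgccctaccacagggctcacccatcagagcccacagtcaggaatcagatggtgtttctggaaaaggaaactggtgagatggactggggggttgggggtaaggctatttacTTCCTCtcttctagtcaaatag
Fcgr2b: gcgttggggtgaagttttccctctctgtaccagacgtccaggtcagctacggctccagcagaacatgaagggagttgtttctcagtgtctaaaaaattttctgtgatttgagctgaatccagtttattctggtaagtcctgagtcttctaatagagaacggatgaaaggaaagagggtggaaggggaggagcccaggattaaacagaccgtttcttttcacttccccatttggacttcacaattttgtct
The Fcgr3 window belongs to a start inside the gene's span, and a second RefSeq entry, at chr1:171059395-171059644, overlaps it. The match began 6 bases before the start in Fcgr3 (15 in the second entry) and 22 bases before it in Fcgr4, and none was found in this window of Fcgr2b. Fcgr1 held a match 55 bases before its start, and Fcer1g, C3 and Cfp held none. A match was thus found in 5 of the 9 member genes with a promoter entry. Among all promoter windows, counted per window and not per gene, 23.3% held one. The difference was not tested, and a match is no evidence of binding. Other motifs searched on both strands were TTGCGNAA, bound by C/EBP factors and found in C3 45 bases before the start (0.67% of all windows), and TGCTGAC, bound by MAF factors and found in Fcgr3 43 bases before the start, or 52 in the second entry (3.81% of all windows).

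The 3′ untranslated regions of the members were searched for TATTTAT, the core of the AU-rich sites that TTP binds. In the matching GENCODE transcripts 0 of 11 held it, against 27.1% of 15135 tested transcripts with an annotated 3′ untranslated region. These regions were 43 to 2397 bases long in the members, against a median of 957 bases over the tested transcripts. Only Fcgr1, at 1367 bases, and the long form of Fcgr2b, at 2397 bases, were above that median. The shares with a match are therefore not compared at like length, and no other AU-rich form was searched.

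The spleens differed among themselves in a way that ran through most members. WT replicate 4 was the lowest of the 8 spleens for 8 of the 11 rows and TTPΔARE replicate 4 the highest for 7 of them, whereas 14.9% of all tested rows were lowest in WT replicate 4 and 11% were highest in TTPΔARE replicate 4. C3 and both forms of Fcgr2b were not lowest in WT replicate 4, which was the highest spleen for C3 and for the short form of Fcgr2b. C1qa was highest in WT replicate 1. Red pulp macrophage genes summed to 671.7, 683.3, 702.8 and 733.6 FPKM in TTPΔARE spleens, against 605.7, 595.6, 735.1 and 515.8 FPKM in WT spleens, so that WT replicate 4 was lowest there too. NK cell genes summed to 75.9, 74.5, 76.8 and 125.8 FPKM in TTPΔARE spleens, against 82.8, 72.2, 81.2 and 52.5 FPKM in WT spleens, with the same 2 spleens at the ends. The 12 neutrophil genes, all with positive log2 changes and 2 of them passing, summed to 157.0 to 272.6 FPKM in TTPΔARE and 108.5 to 300.4 FPKM in WT spleens. WT replicate 4 was also lowest for the marginal zone macrophage, neutrophil, erythroid, megakaryocyte and platelet, mast cell and basophil, and endothelial sums. It was not lowest for the monocyte, dendritic cell, B cell, plasma cell, T cell or stromal sums. The part of any of these cell types in the member values was not tested.

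**Figure D4:**
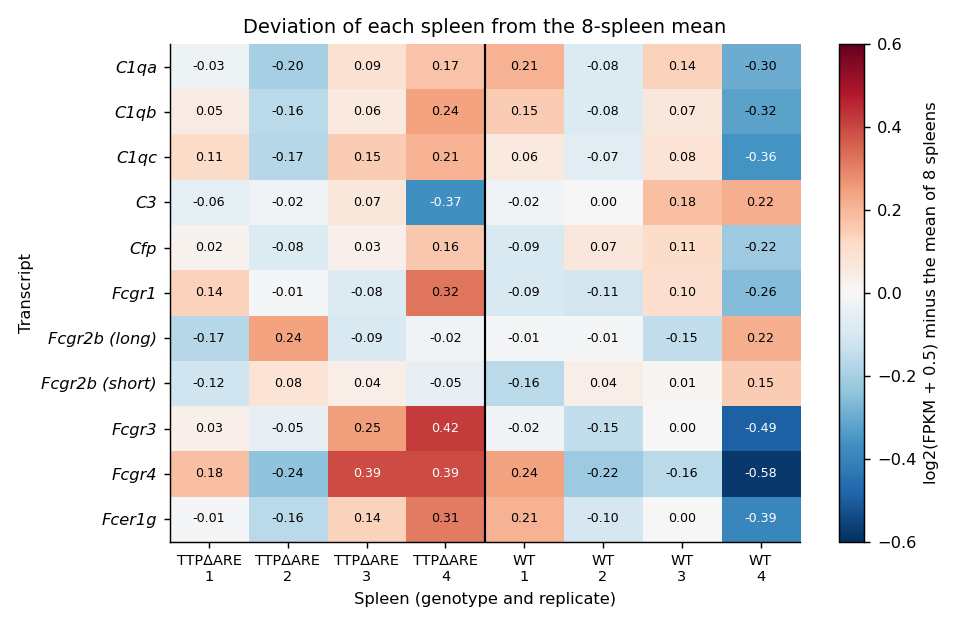
Deviation of log2(FPKM + 0.5) from the mean of the 8 spleens, for each member transcript (rows) and spleen (columns, TTPΔARE left of WT). Fcgr4 runs from -0.58 in WT replicate 4 to 0.39 in TTPΔARE replicates 3 and 4, and WT replicate 4 is above the mean only for C3 and both forms of Fcgr2b.

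Markers of the cells that carry these receptors rose in some lists and fell in others. Over all 12410 genes, each read from its most abundant transcript as in these lists, limma called 2.26% higher and 1.91% lower. At an unadjusted p under 0.05 there were 21.8% of them. Of 14 red pulp macrophage genes tested, 2 rose and 12 did not pass. Emr1, which encodes F4/80, rose to 36.5 ± 3.78 FPKM in TTPΔARE, against 28.2 ± 2.07 FPKM in WT spleens (SD, n = 4 each), a log2 change of 0.36 (limma adjusted p = 0.0354), and Vsig4 is described among the complement receptors. Of 7 marginal zone macrophage genes Marco, a scavenger receptor, rose (log2 0.46, limma adjusted p = 0.0346), and 6 did not pass. Over that list 4 of 7 log2 changes were positive and the median was 0.02, with Siglec1 at -0.24 (limma adjusted p = 0.221). Of 12 dendritic cell genes 4 rose, Esam, Itgae, Xcr1 and Flt3, with log2 changes of 0.41, 0.56, 0.53 and 0.33 (limma adjusted p of 0.00957, 0.0121, 0.0307 and 0.0449), and 9 were at an unadjusted p under 0.05. The dendritic cell sum, mostly H2-Aa, was 647.8 to 761.8 FPKM in TTPΔARE and 619.1 to 736.3 FPKM in WT spleens. Among 12 monocyte genes Lyz2, Lyz1, Ace and Nr4a1 fell, with log2 changes of -0.49, -0.54, -0.75 and -0.38. Over the list 5 of 12 log2 changes were positive, and the median was -0.04. The monocyte sum, mostly Lyz2, was 643.6 to 675.0 FPKM in TTPΔARE and 781.9 to 995.0 FPKM in WT spleens. Fcgr4, which monocytes also express, had a log2 change of 0.36 that did not pass.

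Around the members, 72 other genes of the complement and Fc receptor pathways were tested, with each gene read from its most abundant transcript. Of these 2 rose and 5 fell, 2.78% and 6.94%, against 2.26% higher and 1.91% lower among all 12410 genes read the same way. At an unadjusted p under 0.05 there were 22, or 30.6%, against 21.8% of all genes read the same way. The genes that rose were Vsig4 and Cd93, and those that fell were Cfb, Cd55, Clu, Fcer2a and Lat2. The median log2 change over the 72 was -0.027. With the mean of the erythroid genes, which moved with genotype, as a covariate, limma called 0 of all rows, and these 7 genes had adjusted p of 0.461 to 0.965. In that fit the log2 changes were -0.58 for Cd55, 0.40 for Cd93, 0.91 for Vsig4, -0.52 for Fcer2a, -0.35 for Clu, -0.23 for Cfb and -0.25 for Lat2. Because the erythroid sums did not overlap between genotypes, the fit cannot tell genotype and erythroid level apart.

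Within complement, 1 of 4 alternative pathway genes fell and 0 rose, in a list that includes the members C3 and Cfp. Of 6 classical pathway genes, which include the C1r and C1s proteases that C1q activates, 0 passed by limma, with 0 at an unadjusted p under 0.05, and C4b stood at a log2 change of -0.17. Cfb, the protease component of the alternative pathway convertase, had 8.67, 8.3, 7.55 and 5.73 FPKM in TTPΔARE spleens, against 11.6, 10.3, 10.1 and 12.6 FPKM in WT spleens. Every TTPΔARE spleen was below every WT spleen (log2 -0.54, SE 0.116, limma adjusted p = 0.0289). The call for Cfb was lost when 1 of 3 spleens was left out, with adjusted p up to 0.0875. Of 3 lectin pathway genes and 2 terminal pathway genes 0 passed by limma, with 1 and 0 at an unadjusted p under 0.05, and the macrophage ficolin Fcna stood at a log2 change of 0.17.

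Of 10 complement regulators tested 1 rose and 2 fell. Cd55, which encodes decay accelerating factor, fell to 39.7 ± 3.92 FPKM in TTPΔARE, against 62.0 ± 2.03 FPKM in WT spleens (SD, n = 4 each), a log2 change of -0.64 with a limma adjusted p of 0.0036. Clu, which encodes clusterin, an inhibitor of the terminal complex, had 94.5, 93.2, 86.7 and 74.2 FPKM in TTPΔARE spleens, against 120.0, 121.0, 122.8 and 126.0 FPKM in WT spleens (log2 -0.49, limma adjusted p = 0.00877). The groups were apart for both. Of 8 follicular dendritic and stromal genes tested 4 fell beside them, Ccl21a, Mfge8, Madcam1 and Cxcl13, and the list summed to 130.9 to 183.8 FPKM in TTPΔARE and 219.9 to 264.7 FPKM in WT spleens; no marker was at 0 in all spleens, and the part of these cells in the falls was not tested. Cd93, an endothelial and myeloid surface protein once described as a C1q receptor, rose to 8.06 ± 0.237 FPKM in TTPΔARE, against 5.94 ± 0.325 FPKM in WT spleens (log2 0.41, limma adjusted p = 0.00577). Of 7 endothelial genes tested 2 rose, Gpihbp1 and Kdr, and the list summed to 115.2 to 122.6 FPKM in TTPΔARE and 100.8 to 118.9 FPKM in WT spleens; their part in the Cd93 value was not tested.

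Of 8 complement receptor genes 2 rose, Cd93 and Vsig4. Vsig4 encodes CRIg, a receptor of tissue macrophages for fragments of C3. It had 0.63, 1.13, 0.948 and 1.17 FPKM in TTPΔARE spleens, against 0.296, 0.301, 0.262 and 0.195 FPKM in WT spleens, a low level in both groups (log2 0.93, limma adjusted p = 0.00493). At this level the log2 change depended on the pseudocount, at 1.53 with 0.1 and 0.63 with 1, and passed with either. Cr2, the complement receptor of B cells and follicular dendritic cells, averaged 78.9 ± 8.65 FPKM in TTPΔARE and 63.6 ± 8.35 FPKM in WT spleens and did not pass (log2 0.31, limma adjusted p = 0.121).

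Among 9 other Fc receptor genes Fcer2a fell and 8 did not pass. Fcer2a encodes the low-affinity IgE receptor of follicular B cells and had 12.5, 13.0, 10.2 and 12.5 FPKM in TTPΔARE spleens, against 17.3, 18.6, 19.2 and 18.5 FPKM in WT spleens (log2 -0.60, limma adjusted p = 0.00461). The B cell sum, which includes Fcer2a itself, was lower in the same TTPΔARE spleens. The part of B cells in the fall was not tested. Of 23 genes of activating Fc receptor signalling only Lat2, an adaptor of B cells and myeloid cells, fell, to 8.95 ± 1.1 FPKM in TTPΔARE, against 12.9 ± 0.624 FPKM in WT spleens (SD, n = 4 each), a log2 change of -0.51 (limma adjusted p = 0.00935). Of 9 genes of inhibitory signalling, which include the phosphatases recruited by Fcgr2b, 0 passed by limma, with 3 at an unadjusted p under 0.05, and Ptpn6 stood at a log2 change of -0.09.

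**Figure D5:**
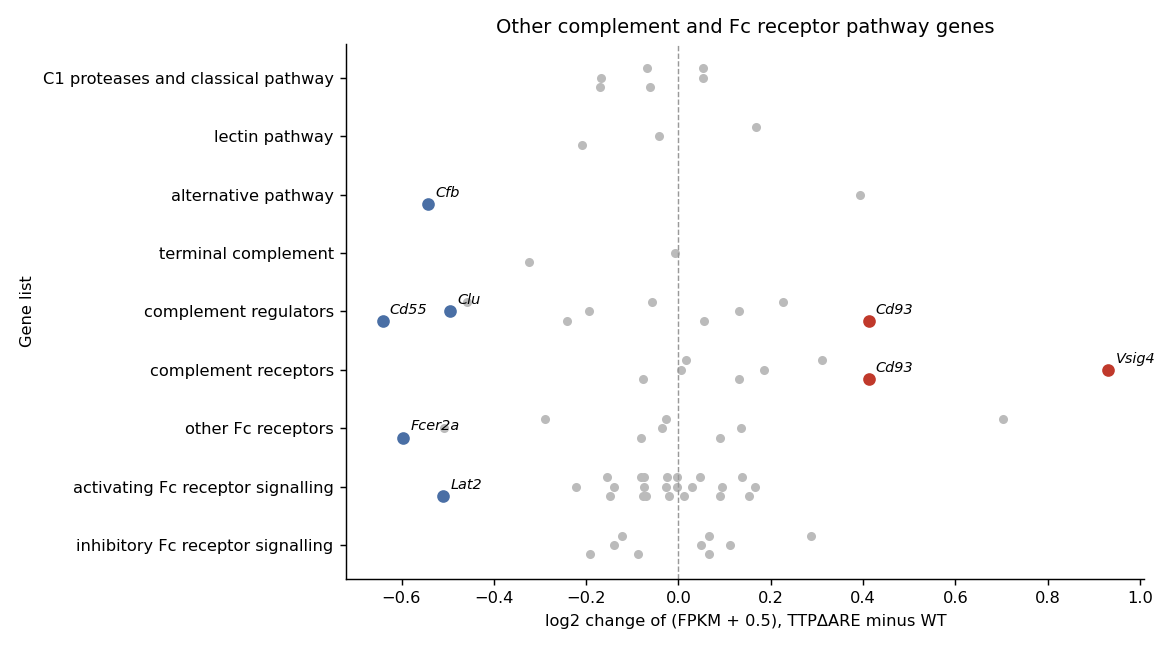
Log2 change, TTPΔARE minus WT, of the other complement and Fc receptor pathway genes by list, 1 dot per gene from its most abundant transcript; coloured and named dots passed (limma adjusted p under 0.05), grey dots did not. Vsig4 and Cd93 lie to the right and Cfb, Cd55, Clu, Fcer2a and Lat2 to the left; Cd93 is on 2 lists.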

How the data were processed

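The authors deposited 1 table of FPKM per RefSeq transcript for 4 TTPΔARE and 4 WT spleens of total RNA. The submitters' processing notes name BWA and the mm10 build. The sources used here do not give the counting tool, annotation release, strand setting, filters or handling of multiply matching reads. Groups follow the genotype labels, which give no batch or pairing. Each library is a separate spleen, and the p-values set the difference between genotypes against the variation between these 4 and 4 spleens. For limma this variation was drawn toward a trend over all rows tested. With FPKM in place of counts, count models were left aside. Library depth was taken from values of at most 0.5 FPKM and GENCODE M21 transcript lengths, as the smallest depth at which most became whole fragments within 0.05. At that depth 54.1 to 58.6% were whole, against 6.02 to 6.6% at other depths, so counts were not rebuilt.

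The 16608 rows with a mean of at least 0.5 FPKM entered limma 3.58.1 (R 4.3.3, variance trend, two-sided) as log2(FPKM + 0.5), with Benjamini-Hochberg adjustment over all of them and a threshold of 0.05. Fold changes on this scale understate the change of low transcripts. Ratios within a spleen were compared by exact permutation over the 70 assignments (scipy 1.17.1). The members and all gene lists were chosen with earlier results of these data known. Named genes are all members and, for each list, the 3 genes with the smallest p, the 1 with the highest mean and those past the threshold; not every one is printed. Simulated data of the same 16608 rows, with 50 changed per fold size, tested the limma step. Recovery was 66% for 1.3-fold, 86% for 1.5-fold, 94% for 2-fold and 100% for 3-fold changes, and 13 false calls were among 186. Promoter windows and gene positions, which span all transcript models of a gene, are RefSeq's (GRCm38.p6), and 3′ untranslated regions are GENCODE's. Alternatives were other pseudocounts, filters, scalings, variance models and transcript choices, array weights, the erythroid mean as covariate, a 0.1 threshold and leaving out each spleen.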

Additional observations from a re-analysis of the deposited data

How the results depend on the processing

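No member transcript passed by limma under any of the alternatives run or with any spleen left out, with 0 to 3 at an unadjusted p under 0.05. With the erythroid mean as a covariate several members changed sign without passing, to a log2 change of -0.22 for C1qa, -0.10 for C1qb, -0.09 for C1qc, -0.12 for Cfp, -0.06 for Fcer1g and 0.18 for the long form of Fcgr2b, and Fcgr3, Fcgr1 and Fcgr4 came to 0.02, 0.0046 and 0.12. That fit called 0 rows higher and 0 lower (limma, 980 at an unadjusted p under 0.05), and so 0 of the pathway genes in either direction. In it Cd55, Cd93, Vsig4 and Fcer2a were at -0.58, 0.40, 0.91 and -0.52, and Clu, Cfb and Lat2 at -0.35, -0.23 and -0.25. Erythroid level moved with genotype, so the fit cannot tell them apart. With 1 spleen left out the log2 change of C1qa was -0.08 to 0.09, that of the long form of Fcgr2b -0.11 to 0.05 and that of the short form -0.08 to 0.02, and the other members kept their sign. Calls over all rows were 93 to 437 higher and 104 to 332 lower with 1 spleen left out, lowest without TTPΔARE replicate 3 (93 and 104), and 117 and 137 without TTPΔARE replicate 4, 114 and 136 without WT replicate 4. They were 726 higher and 636 lower at a threshold of 0.1, and 215 lower with 1 transcript per symbol, where fewer rows were tested. Among the pathway genes 1 rose with a minimum of 1 FPKM, since Vsig4 was then not tested, and 2 to 3 rose and 4 to 7 fell with 1 spleen left out. The 10 ratios kept their direction and side of the threshold under the other pseudocounts and summed transcripts; with 1 spleen left out the exact test cannot pass, its smallest p being 0.0571, and the sign changed for Fcer1g to Fcgr2b (-0.01 to 0.32 on the log2 scale), C1qa to Cfp (-0.11 to 0.04) and C1qb to Cfp (-0.02 to 0.11). No paired analysis was possible because the labels give no replicate number or pairing. With 4 spleens a group, simulated recovery was 66% at 1.3-fold, for rows picked at random and varied independently of each other. Recovery for the members themselves was not simulated.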

Other observations

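Of the 3 ratios between C1q chains, chosen after the values were seen, 1 stood apart between genotypes without overlap and did not pass after correction. The ratio of C1qc to C1qa (FPKM + 0.5) was 1.44, 1.33, 1.37 and 1.34 in TTPΔARE spleens, against 1.17, 1.32, 1.26 and 1.26 in WT spleens. Each TTPΔARE spleen was above each WT spleen, by a narrow margin for TTPΔARE replicate 2 and WT replicate 2. The log2 difference was 0.13 (exact two-sided permutation p = 0.0286, the smallest that 4 against 4 allow). After Benjamini-Hochberg adjustment over the 3 ratios between chains the permutation p was 0.0858. A ratio that is alone at the smallest p can reach no lower value, so the correction could not be passed here. The ratio of C1qb to C1qa was 1.11 to 1.2 in TTPΔARE and 1.08 to 1.13 in WT spleens (exact permutation p = 0.0857), and that of C1qc to C1qb was 1.13 to 1.23 in TTPΔARE and 1.08 to 1.17 in WT spleens (exact permutation p = 0.229). All are bulk levels over 8 spleens.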
